A study of Mus musculus with 10 samples.

Results

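The 10 genes described here encode the receptor chains through which a CD8 T cell senses interferon-gamma (Ifngr1, Ifngr2), type I interferon (Ifnar1, Ifnar2), IL-12 (Il12rb1, Il12rb2), IL-18 (Il18r1, Il18rap), the IL-6 family (Il6st) and IL-10 (Il10ra). They are 10 of 54408 genes summed from the deposited tables, and all 10 passed the filter that left 13081 genes for testing. The chains were chosen by name, with earlier genotype differences in these same libraries known, so those differences and their p-values are a description of the members and support nothing about the choice. The RNA came from P14 CD8 T cells, which carry a transgenic receptor for the gp33 peptide, sorted from subcutaneous tumours of B16-gp33, a mouse melanoma line that expresses this peptide. All T cells were of C57BL/6 background with Nfat5 flox/flox alleles. WT cells were CD4-Cre-/- and NFAT5 KO cells CD4-Cre+/-, so Cre under the Cd4 promoter acted during T cell development. Both genotypes were activated for 48 h in culture, transferred into tumour-bearing mice and recovered 7 days later, which gave 5 WT and 5 NFAT5 KO libraries. Whether each library came from a separate mouse is not given in the labels, so a p-value here reflects spread among libraries that may be technical in part.

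As background, these receptors work as pairs: 1 chain binds the cytokine, the other completes the complex, and kinases of the JAK family bound to the chains phosphorylate STAT factors. The IL-18 receptor is the exception among them and signals through MyD88 and IRAK kinases. In CD8 T cells IL-12 and type I interferon act as activating signals beside antigen, IL-18 adds to interferon-gamma output, and IL-10 and gp130 cytokines act on survival, memory and restraint. T helper cells of the interferon-gamma producing type are known to lose IFNGR2 while keeping IFNGR1. NFAT5 is a transcription factor best known for its role when cells face high salt.

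Library totals were 22444310 to 32001285 estimated counts. CPM below are counts scaled to a common library total, and log2 fold changes are NFAT5 KO minus WT with their standard error (SE). Nfat5 itself ranged over 9.2 to 18.3 CPM in WT against 11.6 to 26.7 CPM in NFAT5 KO libraries, with a log2 fold change of -0.04 (SE 0.27, edgeR adjusted p = 0.957). The labels do not say which part of the gene is removed, so reads from the rest of the transcript can remain and the gene total does not check the genotype. All 8 CD8 T cell markers were tested and the mean over them was 9.61 to 9.87 log2 CPM in every library, which fits the labelled cell type.

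Of the 10 chains, 3 were higher in NFAT5 KO cells at an edgeR adjusted p below 0.05 over all genes (Ifngr1, Il12rb2 and Ifnar1) and none was lower. Over all genes tested, 3.38% were called higher, 5.63% lower and 9.01% in either direction. The median log2 fold change was 0.21 over the 10 chains and 0.02 over all genes, and 8 of the 10 values were above 0. In each of the 3 cases the other chain of the same receptor did not pass the test: Ifngr2 was close to undetected, Ifnar2 had a log2 fold change of 0.01 and Il12rb1 of 0.10. Because RNA was measured in bulk, more RNA per cell and more cells with the RNA cannot be told apart.

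**Figure D1:**
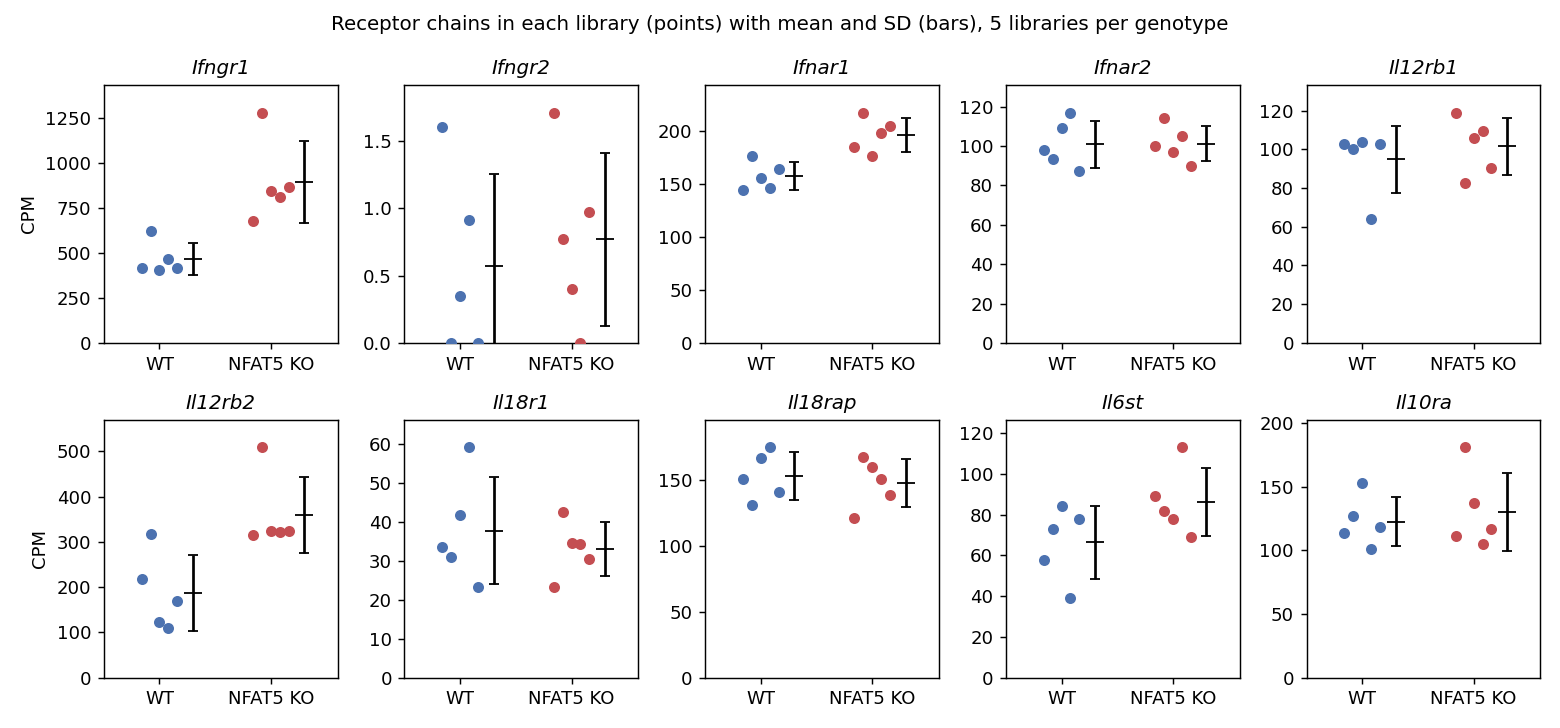
CPM of each receptor chain (vertical axis, from 0) in the 5 WT (blue) and 5 NFAT5 KO (red) libraries, 1 point per library, with mean and SD as black bars (the lower bar of Ifngr2 in WT is cut at 0). Only for Ifngr1 did every NFAT5 KO point, from 676 CPM up, lie above every WT point, up to 624 CPM; Il12rb2 and Ifnar1 overlapped by 1 WT library each.

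The sequence just before the start site is shown for the 3 chains that rose and for the partner chains Ifngr2 and Ifnar2, so that the upstream regions of paired chains can be read side by side. Each is the 250 bases upstream of the RefSeq start site in GRCm38.p6, on the strand of the gene, and 8 of the 10 chains matched an entry of that table. Capitals mark matches to 5 short motifs searched on both strands in 32851 such windows. These were the NFAT core TGGAAA (in 18.6% of windows), the STAT-type element TTCNNNGAA (7.02%), the IRF-type repeat GAAANNGAA (7.13%), the T-box element TCACAC (12.3%) and the AP-1 site TGANTCA (6.75%).
Ifngr1 (chr10:19591699-19591948, plus strand): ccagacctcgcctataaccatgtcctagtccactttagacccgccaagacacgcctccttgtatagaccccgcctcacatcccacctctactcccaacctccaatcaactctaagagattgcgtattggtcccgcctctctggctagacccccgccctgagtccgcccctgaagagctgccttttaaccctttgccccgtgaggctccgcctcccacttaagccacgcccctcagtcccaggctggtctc
Ifngr2 (chr16:91546809-91547058, plus strand): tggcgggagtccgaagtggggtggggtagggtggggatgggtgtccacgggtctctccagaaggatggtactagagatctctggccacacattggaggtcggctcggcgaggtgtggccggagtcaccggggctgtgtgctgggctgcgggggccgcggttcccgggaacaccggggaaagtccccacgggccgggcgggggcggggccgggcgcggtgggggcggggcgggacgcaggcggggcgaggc
Ifnar1 (chr16:91484965-91485214, plus strand): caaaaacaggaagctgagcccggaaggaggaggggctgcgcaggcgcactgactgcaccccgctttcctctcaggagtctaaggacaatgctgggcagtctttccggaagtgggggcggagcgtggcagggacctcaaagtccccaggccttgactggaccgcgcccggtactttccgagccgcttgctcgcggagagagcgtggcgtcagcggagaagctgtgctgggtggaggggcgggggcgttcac
Ifnar2 (chr16:91372533-91372782, plus strand): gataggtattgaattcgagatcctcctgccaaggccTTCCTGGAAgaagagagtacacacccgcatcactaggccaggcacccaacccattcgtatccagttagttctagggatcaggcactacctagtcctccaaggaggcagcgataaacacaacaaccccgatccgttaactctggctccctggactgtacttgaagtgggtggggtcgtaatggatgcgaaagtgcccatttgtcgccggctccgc
Il12rb2 (chr6:67376189-67376438, minus strand): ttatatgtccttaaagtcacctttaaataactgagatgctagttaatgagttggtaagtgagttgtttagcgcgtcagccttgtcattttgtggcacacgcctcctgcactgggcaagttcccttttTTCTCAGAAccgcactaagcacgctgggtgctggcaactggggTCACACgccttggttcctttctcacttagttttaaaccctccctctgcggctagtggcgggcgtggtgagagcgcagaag

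The Il12rb2 window held 1 STAT-type element, TTCTCAGAA, 123 to 115 bases upstream of the start, and 1 T-box element 80 to 75 bases upstream. The Ifnar2 window held the STAT-type element TTCCTGGAA 214 to 206 bases upstream. No match to the 5 motifs was found in the Ifngr1, Ifngr2 and Ifnar1 windows. Among the 8 chains with sequence, 3 held a STAT-type element (Ifnar2, Il12rb2 and Il18r1), 1 an NFAT core (Il18r1), and none an AP-1 site or an IRF-type repeat. Il18r1 was searched in 3 windows, from 3 start sites, and every other chain in 1. Its STAT-type elements lay in window 3 and its NFAT core in windows 1 and 2. These counts of chains are therefore not directly comparable with the shares of windows given above. The Ifngr2 window was the richest of those shown in G and C, with 74% against 59.2% for Ifngr1, 65.6% for Ifnar1, 54% for Ifnar2 and 50% for Il12rb2, where the median over all windows was 52.4%. A match is a run of letters and not a measured binding site.

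Ifngr1 (ENSMUSG00000020009, GRCm38 chromosome 10, 19591949 to 19610229, plus strand) encodes the chain that binds interferon-gamma and carries JAK1. By library, the WT values were 418 CPM (678_2), 624 CPM (678_4), 406 CPM (679_3), 465 CPM (679_4) and 417 CPM (679_5). The NFAT5 KO values were 676 CPM (678_3), 1279 CPM (678_5), 843 CPM (678_6), 809 CPM (679_2) and 867 CPM (679_6), and the other genes follow this order. All 5 NFAT5 KO libraries were above all 5 WT libraries, a separation seen in 3.92% of all genes tested. The means were 466 ± 91.1 and 895 ± 227 CPM (SD, n = 5 each), a log2 fold change of 0.94 (SE 0.17, edgeR adjusted p = 0.00391) or 1.92-fold (95% interval 1.49 to 2.47). Each of the 10 fits that left out 1 library kept the call, with log2 fold changes of 0.76 to 1.05. WT library 678_4 was the nearest to the NFAT5 KO range, and NFAT5 KO library 678_5 was the highest of all.

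Ifngr2 (ENSMUSG00000022965, chromosome 16, 91547072 to 91565623, plus strand), the chain that carries JAK2 and is needed for interferon-gamma signalling, was close to undetected in either genotype. Its estimated counts were 48, 0, 11, 27 and 0 in the WT libraries and 42, 21, 9, 0 and 30 in the NFAT5 KO libraries, in the order given for Ifngr1. The sums were 86 counts over 5 WT and 102 counts over 5 NFAT5 KO libraries. In the 3 libraries at 0, a floor of 3 counts allows 0.103 to 0.134 CPM, for counting error only. The means were 0.572 ± 0.685 CPM in WT against 0.771 ± 0.643 CPM in NFAT5 KO (SD, n = 5 each). The log2 fold change of 0.42 (SE 1.21, edgeR adjusted p = 0.88) has a 95% interval of 0.216-fold to 8.26-fold, so a genotype difference was not measurable at this depth. Per length, the ratio of Ifngr2 to Ifngr1 was 0.00169 ± 0.00245 in WT and 0.00138 ± 0.00121 in NFAT5 KO libraries (ratio of TPM, SD, n = 5 each). The Ifngr2 counts fell on 2 annotated transcripts, Ifngr2-201 with 332 codons and the decay-marked Ifngr2-202, and their shares were not tested because some libraries had no count.

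Ifnar1 (ENSMUSG00000022967, chromosome 16, 91485238 to 91507441, plus strand) encodes the chain of the type I interferon receptor that carries TYK2. It was counted at 144, 176, 155, 146 and 164 CPM in WT against 185, 217, 176, 198 and 204 CPM in NFAT5 KO libraries, in the same order. WT library 678_4 overlapped the lowest NFAT5 KO library, 678_6, and the other 4 WT libraries were below all 5 NFAT5 KO libraries. The means were 157 ± 13.3 and 196 ± 16 CPM, a log2 fold change of 0.32 (SE 0.09, edgeR adjusted p = 0.0371) or 1.25-fold (95% interval 1.1 to 1.42). This was the smallest difference of the 3 chains called and also the one with the least spread between libraries. The call remained in 2 of 10 fits that left out 1 library, those without WT 678_4 (adjusted p = 0.0288) and without NFAT5 KO 678_6 (0.0474), and the others gave 0.0587 to 0.111 (the highest without WT 678_2).

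Ifnar2 (ENSMUSG00000022971, chromosome 16, 91372783 to 91405589, plus strand) encodes the chain that binds type I interferon most tightly and carries JAK1. It lay at 97.9, 93.2, 109, 117 and 87.1 CPM in WT against 100, 114, 97.1, 105 and 89.9 CPM in NFAT5 KO libraries. The ranges overlapped, the log2 fold change was 0.01 (SE 0.10, edgeR adjusted p = 0.979), and the 95% interval ran from 0.863-fold to 1.17-fold. Per length, Ifnar1 stood at 0.587 ± 0.123 of Ifnar2 in WT and at 0.822 ± 0.0927 of it in NFAT5 KO libraries (ratio of TPM, SD, n = 5 each), with ranges of 0.456 to 0.775 and 0.698 to 0.95. These ratios contain the contrast by which the members are known, so they are given without a test.

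Il12rb2 (ENSMUSG00000018341, chromosome 6, 67291318 to 67376188, minus strand) encodes the inducible IL-12 receptor chain, which carries JAK2 and recruits STAT4. In WT libraries it was counted at 217, 317, 123, 109 and 169 CPM and in NFAT5 KO libraries at 316, 509, 324, 322 and 323 CPM, in the same order. Among the NFAT5 KO libraries 4 lay within 316 to 324 CPM and 678_5 stood above them, while the WT libraries spread from 109 to 317 CPM. WT library 678_4 reached the lowest NFAT5 KO library. The means were 187 ± 84.2 and 359 ± 84.1 CPM (SD, n = 5 each), a log2 fold change of 0.94 (SE 0.26, edgeR adjusted p = 0.041) or 1.92-fold (95% interval 1.3 to 2.83). Of the 10 fits that left out 1 library, the one without WT 678_4 kept the call (log2 fold change 1.20, adjusted p = 0.00465). The other 9 gave adjusted p of 0.0577 to 0.102, the highest without WT 679_3.

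Il12rb1 (ENSMUSG00000000791, chromosome 8, 70808449 to 70821424, plus strand), the chain shared by the IL-12 and IL-23 receptors that carries TYK2, was counted at 103, 100.3, 104, 64.1 and 103 CPM in WT libraries. It was counted at 119, 82.6, 106, 109.7 and 90.4 CPM in NFAT5 KO libraries. The groups overlapped, and WT 679_4 was the lowest of all 10. The log2 fold change was 0.10 (SE 0.15, edgeR adjusted p = 0.746, 95% interval 0.86-fold to 1.33-fold). The ratio of Il12rb2 to Il12rb1 per length was 1.66 ± 0.606 in WT and 3.13 ± 1.14 in NFAT5 KO libraries (ratio of TPM, SD, n = 5 each), with ranges of 0.98 to 2.63 and 2.46 to 5.13 that overlapped. The remaining partner through which Il12rb1 senses IL-23, Il23r, was listed at 0 CPM in every WT library and at no more than 0.0407 CPM in NFAT5 KO libraries.

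Neither chain of the IL-18 receptor passed the test. Il18r1 (ENSMUSG00000026070, chromosome 1, 40465552 to 40500854, plus strand), which binds IL-18, was counted at 33.7, 30.9, 41.9, 59.2 and 23.3 CPM in WT against 23.4, 42.6, 34.7, 34.4 and 30.6 CPM in NFAT5 KO libraries. Its log2 fold change was -0.19 (SE 0.23, edgeR adjusted p = 0.677, 95% interval 0.618-fold to 1.24-fold), and WT 679_4 was the highest library. Il18rap (ENSMUSG00000026068, chromosome 1, 40515362 to 40551705, plus strand), the accessory chain that completes the receptor, was counted at 151, 131, 167, 175 and 141 CPM in WT against 121, 168, 159.7, 151 and 139 CPM in NFAT5 KO libraries. Its log2 fold change was -0.05 (SE 0.11, edgeR adjusted p = 0.831, 95% interval 0.82-fold to 1.14-fold). The accessory chain exceeded the binding chain in every library: per length, Il18rap over Il18r1 was 2.25 ± 0.579 in WT and 2.37 ± 0.171 in NFAT5 KO libraries (ratio of TPM), with the lowest library at 1.68.

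Il6st (ENSMUSG00000021756, chromosome 13, 112464070 to 112510086, plus strand) encodes gp130, the signalling chain shared by IL-6, IL-11, IL-27, LIF and oncostatin M. It was counted at 57.8, 73.0, 84.0, 39.2 and 78.0 CPM in WT against 89.2, 82.0, 77.7, 113 and 68.8 CPM in NFAT5 KO libraries. The groups overlapped, with 2 NFAT5 KO libraries above all WT libraries. The log2 fold change was 0.38 (SE 0.19, edgeR adjusted p = 0.275, 95% interval 0.968-fold to 1.74-fold). Of the chains that pair with gp130, Il27ra for IL-27 was counted at 192 ± 9.5 CPM in WT against 181 ± 15.8 CPM in NFAT5 KO libraries (log2 fold change -0.09, edgeR adjusted p = 0.563). Il6ra for IL-6 was counted at 1.42 ± 1.38 and 3.14 ± 1.37 CPM (log2 fold change 1.14, edgeR adjusted p = 0.357). Lifr was listed at 0 CPM in every library of both genotypes. Osmr was at 0 CPM in every WT library and at no more than 0.103 CPM in NFAT5 KO libraries. Per length, the ratio of Il27ra to Il6st TPM was 5.07 ± 2.74 in WT against 3.58 ± 0.985 in NFAT5 KO libraries, and that of Il6ra to Il6st was 0.0218 ± 0.0172 against 0.0481 ± 0.0108 (SD, n = 5 each).

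Il10ra (ENSMUSG00000032089, chromosome 9, 45253837 to 45269149, minus strand), which binds IL-10 and carries JAK1, was counted at 114, 127, 153, 101 and 118 CPM in WT against 111, 181, 137, 105 and 117 CPM in NFAT5 KO libraries. NFAT5 KO 678_5 was the highest and the other NFAT5 KO libraries lay inside the WT range. The log2 fold change was 0.09 (SE 0.15, edgeR adjusted p = 0.789, 95% interval 0.842-fold to 1.34-fold). Its partner Il10rb, which also serves the receptors for IL-22 and interferon-lambda, was counted at 95.5 ± 7.35 CPM in WT against 88.5 ± 11 CPM in NFAT5 KO libraries (log2 fold change -0.11, edgeR adjusted p = 0.565). NFAT5 KO library 678_5 was thus the highest of all 10 for Ifngr1, Ifnar1, Il12rb2 and Il10ra; without it the log2 fold changes were 0.76 for Ifngr1, 0.26 for Ifnar1, 0.76 for Il12rb2 and -0.08 for Il10ra.

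Compared per length, the chains covered more than 2 orders of magnitude, with Ifngr1 first and Ifngr2 last in either genotype. In WT libraries the mean TPM was 253 ± 49.9 for Ifngr1, 87.2 ± 7.82 for Ifnar2, 66.4 ± 30.1 for Il12rb2 and 50.6 ± 7.36 for Ifnar1. It was 39.8 ± 8.36 for Il12rb1, 37.0 ± 7.24 for Il10ra, 33.7 ± 2.88 for Il18rap, 20.7 ± 8.95 for Il6st, 16 ± 4.9 for Il18r1 and 0.378 ± 0.537 for Ifngr2 (SD, n = 5). Library ranges of Il12rb2, Ifnar1, Il12rb1, Il10ra and Il18rap overlapped from each to the next in this order, so neighbours among them are not resolved in WT. Il12rb2 (36.5 to 113 TPM) also overlapped Ifnar2 (77.0 to 95.5 TPM), and Il6st overlapped Il18r1. Ifnar1 (43.2 to 59.7 TPM) lay wholly above Il18rap (30.9 to 37.7 TPM). In NFAT5 KO libraries Ifngr1 stood at 496 ± 144 TPM and Il12rb2 at 129 ± 36.1 TPM. There Il12rb2 was second, with a lowest library of 109.8 TPM above the highest Ifnar2 library of 108 TPM. Ifnar2 followed at 84.0 ± 14.3 TPM and Ifnar1 at 68.1 ± 4.25 TPM. Their NFAT5 KO ranges overlapped (71.3 to 108 and 64.5 to 75.3 TPM), so the order of these 2 is not resolved.

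**Figure D2:**
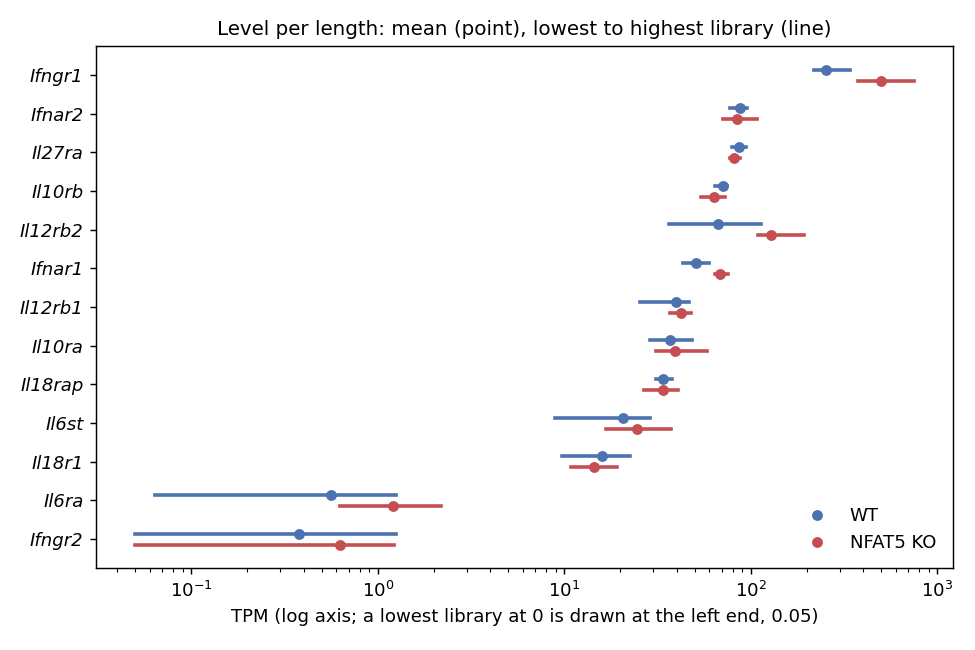
TPM (log axis) of the 10 receptor chains and of the partner chains Il27ra, Il10rb and Il6ra in WT (blue) and NFAT5 KO (red) libraries; points are means and lines run from the lowest to the highest of 5 libraries. Ifngr1 is at the top (253 and 496 TPM), Ifngr2 at the bottom (0.378 and 0.624 TPM), and Il12rb2 stands at 66.4 and 129 TPM.

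Transcript use within each gene is a measure that the gene totals do not fix. The share of a gene's estimated counts given to a transcript was compared over all arrangements of the genotype labels (two-sided exact permutation test, smallest possible p 0.00794). Of 18 transcripts with a mean share of at least 10%, none passed an adjusted p of 0.05 and none had an unadjusted p below 0.05. The smallest exact p was 0.127 (adjusted 0.494), and the largest mean difference was 5.88 percentage points. For Ifngr1, whose total was higher, no share passed the test: Ifngr1-201, which encodes 477 codons, held 88.3% ± 0.641 in WT and 87.9% ± 1.27 in NFAT5 KO libraries (exact permutation p = 0.579, SD, n = 5 each). The decay-marked Ifngr1-203 held 10.2% and 10.4%.

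Il12rb2 counts fell on 2 transcripts. The full-length Il12rb2-201 (874 codons) held 69.0% ± 2.19 in WT and 67.5% ± 1.31 in NFAT5 KO libraries (exact permutation p = 0.27, SD, n = 5 each). The rest went to Il12rb2-202 (540 codons), whose first exon lies inside the gene at 67339599 to 67339694 of chromosome 6. In Ifnar2, Ifnar2-201 (513 codons) held 41.5% ± 6.38 and 46.3% ± 4.51 of the counts (exact permutation p = 0.214, n = 5 each), while Ifnar2-203 (248 codons) ends in an earlier last exon and held 42.5% and 38.7%. Mouse Ifnar2 is known to give a membrane-bound and a soluble protein, and the coding lengths alone do not assign these. Per length the shorter transcript led, with 48.1 ± 6.04 TPM in WT for Ifnar2-203 and 14.8 ± 3.66 TPM for Ifnar2-201. For Il18r1, the transcripts with 537 codons together held 42.9% ± 9.54 of the counts in WT and 41.1% ± 6.02 in NFAT5 KO libraries, and those with 372 codons held 51.0% ± 8.53 and 51.6% ± 9.8. Short-read estimates split reads among transcripts that share exons by a model, so these shares are less certain than gene totals.

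**Figure D3:**
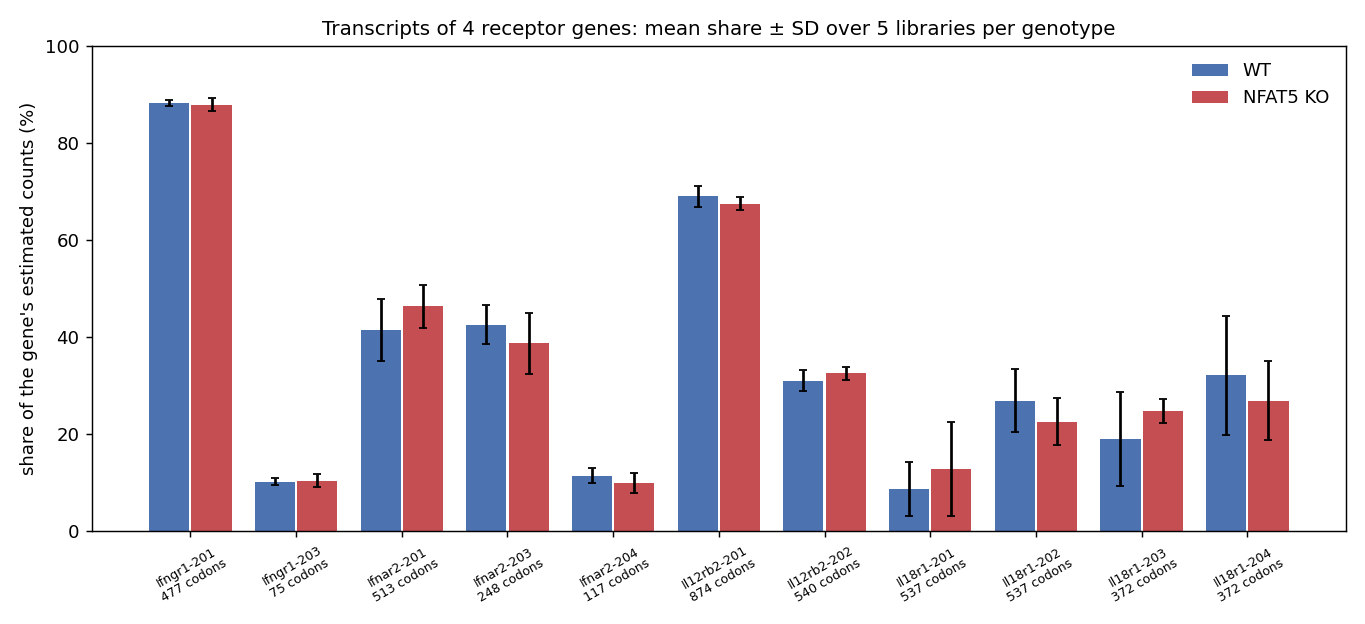
Share of each gene's estimated counts (percent, vertical axis from 0 to 100) given to the tested transcripts of Ifngr1, Ifnar2, Il12rb2 and Il18r1, with codon numbers below the names; bars are means and lines SD over 5 WT (blue) or 5 NFAT5 KO (red) libraries. Ifngr1-201 holds 88.3% and 87.9%, and the bars of each pair differ by at most 5.88 points.

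Ifnar2, Il10rb, Ifnar1 and Ifngr2 lie in this order on chromosome 16, and Il18r1 and Il18rap lie in a cluster of IL-1 family receptors on chromosome 1. Of the 9 chromosome 16 genes listed around them, 8 were tested, Ifnar1 rose and the other 7 did not pass the test (median log2 fold change 0.15). Of the 8 chromosome 1 genes, 5 were tested and 1 fell, Il1r2, a decoy receptor for IL-1. The shares over all genes tested were 3.38% called higher and 5.63% called lower. Il1r2 was counted at 19.2 ± 10.9 CPM in WT against 3.7 ± 3.0 CPM in NFAT5 KO libraries, a log2 fold change of -2.37 (SE 0.60, edgeR adjusted p = 0.0275). Its call was lost without WT 678_2 (adjusted p = 0.0747), NFAT5 KO 678_3 (0.0527), WT 678_4 (0.0538), NFAT5 KO 679_2 (0.0666) or NFAT5 KO 679_6 (0.056). It was the only gene called among the 5 tested of 7 IL-1 family receptors listed.

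None of the tested cytokines for these receptors passed the test. Of 17 listed ligands and binding proteins, 7 were tested and none was called with edgeR, DESeq2 or limma-voom (median log2 fold change -0.08). An unadjusted edgeR p below 0.05 was seen for 0 of these 7, and for 3041 of all 13081 genes tested. Ifng, the ligand of the receptor whose binding chain rose, was counted at 633 ± 63.8 CPM in WT against 646 ± 61.4 CPM in NFAT5 KO libraries (log2 fold change 0.03, SE 0.09, edgeR adjusted p = 0.891). The smallest p belonged to Il18, at 2.11 ± 0.89 and 1.18 ± 0.474 CPM (log2 fold change -0.83, edgeR adjusted p = 0.301). Il12a, Il6 and Ifnb1 were listed at 0 CPM in every library of both genotypes. Il12b was at 0 CPM in every WT library and at no more than 0.227 CPM in NFAT5 KO libraries.

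Among the kinases and factors downstream, 3 of 12 rose, none fell, and all 12 had values above 0 (median log2 fold change 0.29 against 0.02 over all genes). The shares called over all genes tested were 3.38% higher and 5.63% lower. Jak2, the kinase of Ifngr2 and Il12rb2, was counted at 97.0 ± 18.6 CPM in WT against 162 ± 13.6 CPM in NFAT5 KO libraries (log2 fold change 0.74, SE 0.13, edgeR adjusted p = 0.00385). Each fit that left out 1 library kept this call. Jak1, the kinase of Ifngr1, Ifnar2 and Il10ra, was counted at 942 ± 139 and 1273 ± 163 CPM (log2 fold change 0.43, edgeR adjusted p = 0.0343). Stat6, the factor of IL-4 signalling, was counted at 385 ± 88.4 and 554 ± 44.0 CPM (log2 fold change 0.53, edgeR adjusted p = 0.0328). The Jak1 call remained without NFAT5 KO 678_3 (adjusted p = 0.0314) or WT 678_4 (0.0334) and was lost in the other 8 of 10 fits that left out 1 library (0.0528 to 0.096). The Stat6 call was lost in 6 of 10, up to an adjusted p of 0.0896 without WT 678_2. Stat4, the factor of IL-12, did not pass the test (log2 fold change 0.13, edgeR adjusted p = 0.549). Nor did Tyk2 (0.05, edgeR adjusted p = 0.879). Stat3, used by gp130 and IL-10, had a log2 fold change of 0.60 that did not pass with edgeR (adjusted p = 0.0765) and did with the DESeq2 Wald test (adjusted p = 0.0196). Stat5a (log2 fold change 0.40, edgeR adjusted p = 0.0613) was likewise called with DESeq2 and not with edgeR. In this list DESeq2 called 5 genes and limma-voom 4, against 3 with edgeR. Over the whole table DESeq2 called 1893 and limma-voom 1540 of 13081 genes, against 1179 with edgeR. In the MyD88 and IRAK list edgeR called none of 10 tested genes. An unadjusted edgeR p below 0.05 was seen for 3 of them, and for 3041 of all 13081 genes tested. DESeq2 called 1 gene of this list. That gene was Irak2, with a log2 fold change of 0.84 (SE 0.29, edgeR adjusted p = 0.0977, DESeq2 adjusted p = 0.0261).

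Of 12 negative regulators tested, 3 rose and none fell, with a median log2 fold change of 0.05. Of all genes tested, 3.38% were called higher and 5.63% lower. Cish, a STAT5-induced inhibitor, was counted at 166 ± 45.1 CPM in WT against 307 ± 41.4 CPM in NFAT5 KO libraries (log2 fold change 0.88, SE 0.17, edgeR adjusted p = 0.00562). Socs3, which blocks gp130 and IL-12 receptor signalling, was counted at 118 ± 12.4 and 163 ± 21.9 CPM (log2 fold change 0.47, edgeR adjusted p = 0.0178). Socs1, which blocks JAK kinases at interferon receptors, was counted at 76.1 ± 6.75 and 105 ± 17.7 CPM (log2 fold change 0.46, edgeR adjusted p = 0.0346). The Cish call remained in all 10 fits that left out 1 library. The Socs3 call was lost without WT 678_2 (adjusted p = 0.0521), NFAT5 KO 678_6 (0.0582) or NFAT5 KO 679_6 (0.0518). The Socs1 call remained only without NFAT5 KO 678_3 (0.00943), with 0.0534 to 0.0998 in the other 9.

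**Figure D4:**
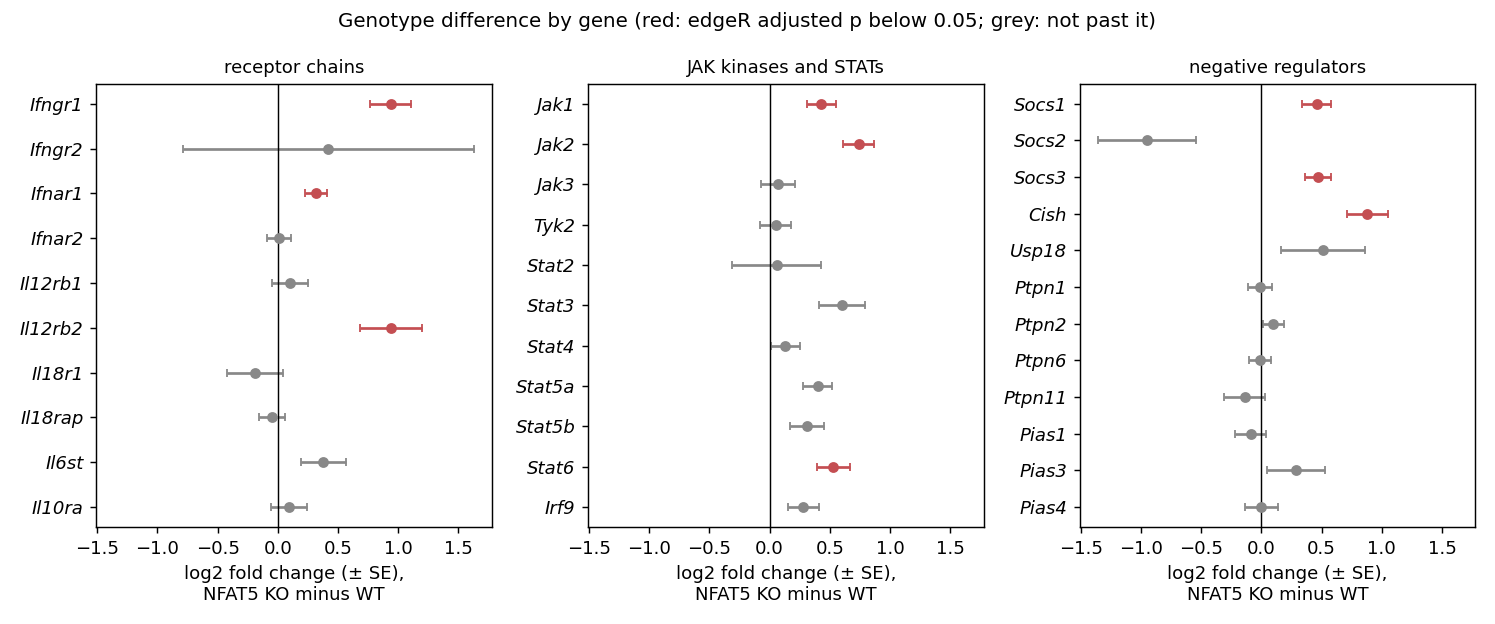
Log2 fold change, NFAT5 KO minus WT, with SE as bars (horizontal axis) for the 10 receptor chains, 11 of the 12 JAK kinases and STAT-pathway factors, and 12 negative regulators; red points passed an edgeR adjusted p of 0.05 over all genes and grey points did not. Each list holds 3 red points, all to the right of 0, and the 11 kinases and factors drawn all lie right of 0.

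Genes that these cytokines are known to induce moved in both directions. Of 38 listed, 36 were tested, 7 rose and 2 fell with edgeR (median log2 fold change 0.21), where 3.38% of all genes were called higher and 5.63% lower. DESeq2 called 13 and limma-voom 10 genes of this list, where they called 1893 and 1540 of all 13081 genes. The genes that DESeq2 added to the edgeR calls were Cxcl10 (log2 fold change 0.94), Pim1 (1.13), Oas1a (-0.49) and Psmb8 (-0.34). Among 14 interferon-gamma targets, Irf1, a transcription factor, rose, with 531 ± 79.1 CPM in WT against 865 ± 189.6 CPM in NFAT5 KO (log2 fold change 0.70, SE 0.15, edgeR adjusted p = 0.0103) and Gbp2, a guanylate-binding protein, had a log2 fold change of 0.40 (adjusted p = 0.0389). In the same group Psmb9, an immunoproteasome subunit, fell, with 334 ± 50.7 CPM in WT against 232 ± 19.5 CPM in NFAT5 KO (log2 fold change -0.52, SE 0.11, edgeR adjusted p = 0.00819). The median of this group was 0.10. Among 11 tested type I interferon targets none rose and Rsad2, the antiviral enzyme viperin, fell, with 10.8 ± 5.61 CPM in WT against 3.3 ± 1.29 CPM in NFAT5 KO (log2 fold change -1.72, SE 0.37, edgeR adjusted p = 0.0112), with a group median of -0.30.

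Among 5 tested IL-12 and IL-18 targets 3 rose and none fell (median log2 fold change 0.56). Gadd45b, a stress-response protein that promotes p38 signalling, rose, with 149 ± 40.2 CPM in WT against 356 ± 96.5 CPM in NFAT5 KO (log2 fold change 1.26, SE 0.20, edgeR adjusted p = 0.00212). Tbx21, the gene of T-bet, a regulator of effector T cells, rose, with 174 ± 21 CPM in WT against 256 ± 33.0 CPM in NFAT5 KO (log2 fold change 0.56, SE 0.11, edgeR adjusted p = 0.00735). The protease gene Furin had a log2 fold change of 1.20 (edgeR adjusted p = 0.0346). Among 6 IL-6 and IL-10 targets 2 rose, Bcl3 (0.85, edgeR adjusted p = 0.0134) and Bcl6 (0.98, adjusted p = 0.0436). Irf1, Psmb9, Rsad2, Gadd45b, Tbx21 and Bcl3 kept their calls in all 10 fits that left out 1 library. Gbp2, Furin and Bcl6 lost theirs in 7, 7 and 6 of 10, with adjusted p up to 0.115 without NFAT5 KO 679_6 for Gbp2 and, without WT 679_3, up to 0.0866 for Furin and 0.109 for Bcl6. Many of these genes also answer to T cell receptor signals, and their cytokine labels come from general knowledge and not from these libraries.

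Marker RNA of other cell types was compared between the genotypes beside these results. Of 9 marker lists, only those for CD8 T cells and B cells passed an adjusted p of 0.05 (exact permutation test). The mean over 13 macrophage markers was 0.495 to 2.29 log2 CPM in WT against -1.56 to 1.06 in NFAT5 KO libraries (difference -1.98, two-sided exact permutation p = 0.0238, adjusted 0.0714 over 9 marker lists), and their summed level was 72 to 155 CPM in WT against 37.6 to 82.3 CPM in NFAT5 KO libraries. Its most abundant member was Lyz2, at 18.9 to 66.2 CPM in WT against 0.549 to 31.9 CPM in NFAT5 KO, while C1qa reached at most 3.69 CPM. Cd68, another defining marker, was at 20.2 to 26.7 CPM in WT against 11.7 to 20.8 CPM in NFAT5 KO (log2 fold change -0.33, edgeR adjusted p = 0.269). Adgre1 was the only called marker of the 10 tested, at 0.944 to 4.1 CPM in WT against 0.0 to 0.377 CPM in NFAT5 KO. Its log2 fold change was -3.86 (edgeR adjusted p = 0.0387). Of the tested markers Itgam alone had a value in the other direction, at 2.8 to 16.8 against 9.29 to 20.1 CPM (0.27, edgeR adjusted p = 0.743). With that mean as a covariate, the log2 fold changes stayed above 0 but none of the 3 chains passed: 0.54 for Ifngr1 (edgeR adjusted p = 0.332), 0.44 for Il12rb2 (0.766) and 0.28 for Ifnar1 (0.568). In that fit 26 genes were called over the whole table against 1179 without the covariate, and none of 16 called genes named above from the pathway lists passed (lowest adjusted p 0.185), while all 16 kept their direction. The macrophage marker mean itself was correlated with genotype (r = -0.7419), so this fit cannot tell the 2 apart fully. The melanoma marker mean was -2.12 to -0.296 log2 CPM in WT against -2.61 to -0.733 in NFAT5 KO libraries (exact permutation p = 0.246), with Sox10 at no more than 3 counts in every library. With it as a covariate Ifngr1 kept its call (log2 fold change 0.84, edgeR adjusted p = 0.0193), and Il12rb2 (0.82, 0.139) and Ifnar1 (0.29, 0.122) did not. The melanoma fit called 580 genes over the whole table. Of the 16 pathway genes, 5 passed in that fit, Tbx21, Gadd45b, Jak2, Cish and Psmb9, and the other 11 had edgeR adjusted p of up to 0.152, Irf1 (0.0524) and Socs3 (0.0763) among them. All 16 kept their direction.

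The CD8 T cell list was 9.69 ± 0.0695 log2 CPM in WT against 9.84 ± 0.0305 in NFAT5 KO libraries (exact permutation p = 0.00794, the smallest possible, adjusted 0.0357, n = 5 each). Its called members were Trac (log2 fold change 0.50, edgeR adjusted p = 0.00936), Cd2 (0.46, 0.0204) and Cd5 (0.29, 0.0468). Cd3e (0.13), Cd3d (0.12), Cd8a (-0.03), Cd8b1 (-0.12) and Cd3g (-0.15) did not pass, so the list mean does not describe Cd8a and Cd8b1. The 6-gene B cell list was lower in NFAT5 KO (difference -0.67, adjusted p = 0.0357, exact permutation test), with Pax5 at no more than 3 counts in every library; Ighm, at 267 to 641 CPM in WT against 225 to 287 CPM in NFAT5 KO, made up most of its level. The 4-gene CD4 T cell list was higher by 0.74 (adjusted p = 0.0893, exact permutation test), with Cd4 itself at 2.42 CPM or less and Foxp3 at 1.8 CPM or less. Its only called member was Cd40lg, at 2.56 to 8.41 CPM in WT against 14.2 to 23.3 CPM in NFAT5 KO. The log2 fold change of Cd40lg was 1.96 (edgeR adjusted p = 0.00175), and Zbtb7b did not pass (0.80, edgeR adjusted p = 0.216). Lists for dendritic cells, neutrophils, NK cells, and fibroblasts with endothelium had adjusted p of 0.143 to 0.452 in the same test. Among the NK cell markers Klre1 was called lower (log2 fold change -1.64, edgeR adjusted p = 0.000451) and Gzma higher (1.52, edgeR adjusted p = 0.0328), so the list mean does not describe them. Of all these lists, Siglech, Clec9a, S100a9, Retnlg, Mmp8, Ncr1, Col1a2, Dcn and Cdh5 were at no more than 3 counts in every library. Apart from the covariate fits, the part of these markers in the receptor values was not tested.

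The libraries carry 2 title prefixes of unstated meaning, 678 (2 WT, 3 NFAT5 KO) and 679 (3 WT, 2 NFAT5 KO). Within 678 the log2 fold changes were 0.84 for Ifngr1 (edgeR adjusted p = 0.375), 0.52 for Il12rb2 (0.557) and 0.26 for Ifnar1 (0.625), in a fit that called 0 of all genes (1449 had an unadjusted p below 0.05). Within 679 they were 0.96 (edgeR adjusted p = 0.00988), 1.26 (0.0233) and 0.37 (0.18). With the prefix as an additive term Ifngr1 (edgeR adjusted p = 0.0069) and Il12rb2 (0.0195) kept their calls and Ifnar1 did not (0.0575). That fit called 976 of all 13081 genes, against 1179 without the term. Of the 16 called pathway genes named above, 11 passed with that term, and Stat6 (edgeR adjusted p = 0.053), Jak1 (0.0581), Socs1 (0.0565), Gbp2 (0.0588) and Bcl6 (0.0648) did not. Within 678 none of the 16 passed (lowest edgeR adjusted p 0.229). Within 679, in a fit that called 325 genes over the whole table, 2 did, Gadd45b (edgeR adjusted p = 0.0186) and Cish (0.0162). All 16 kept their direction within each prefix. The difference between prefixes itself was tested as an interaction and called 0 genes with edgeR (377 had an unadjusted p below 0.05). For Il12rb2 that term was 0.75 (SE 0.35, unadjusted p = 0.0592, edgeR adjusted p = 1.0).

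**Figure D5:**
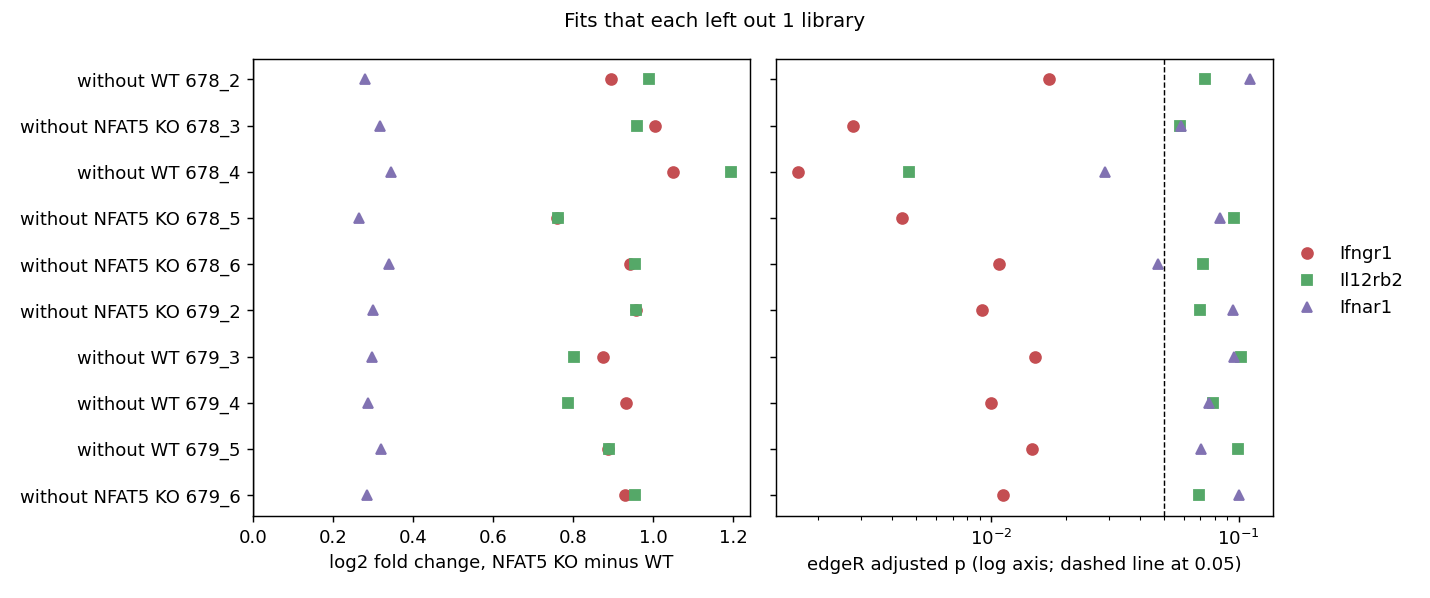
Log2 fold change (left, axis from 0) and edgeR adjusted p (right, log axis, dashed line at 0.05) of Ifngr1, Il12rb2 and Ifnar1 in 10 fits that each left out the library named on the vertical axis. The Ifngr1 points stay left of the dashed line, at most 0.0172, while Il12rb2 passes it in 1 fit and Ifnar1 in 2 fits.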

How the data were processed

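The authors deposited, per the file headers, 1 Salmon table per library with an estimated count and a TPM (abundance per effective length and library total) for each of 140919 transcripts. Salmon 0.14.1 is named in the submitters' processing notes; its annotation and strand setting, and any trimming, are unstated in these sources. It divides reads among similar transcripts by a model. Transcripts were matched to GENCODE M21 (99.38% matched), and gene sums of the estimated counts were rounded. Genes were filtered with filterByExpr, scaled with TMM and tested over all 10 libraries with the edgeR 4.0.16 quasi-likelihood test (R 4.3.3) and Benjamini-Hochberg adjustment at 0.05. Between-gene levels use summed TPM. Library totals set the counting error; the biological coefficient of variation was 35.65%. No 2 libraries of a genotype agreed within sampling noise (lowest chi-square per degree of freedom 27.9).

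The members and lists were chosen with earlier results of these data known. Named were the 10 chains and, per list, up to 5 genes past the threshold by smallest p, or otherwise the smallest p. Il10rb, Il27ra, Il23r, Lifr, Osmr, Ifng, the ligands at or near 0, Stat3, Stat4, Stat5a, Tyk2, Gbp2, Furin, Bcl3, Bcl6, Cxcl10, Pim1, Oas1a and Psmb8 were named after their values were seen. Alternatives used DESeq2 1.42.0, limma 3.58.1, other filters, covariates and left-out libraries. Some genes of the lists are counted but not reported here by name. The fit was tested on simulated data.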

Additional observations from a re-analysis of the deposited data

Results flagged for a closer look

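In 9 of 72 groups of 5 libraries (12.5%) the highest or lowest library stood apart from the other 4 by Dixon's 95% criterion, where chance flags about 1 in 20. For Ifngr1, WT 678_4 was at 624 CPM and the other WT libraries at 406 to 465 CPM. For Il12rb2, NFAT5 KO 678_5 was at 509 CPM against 316 to 324 CPM, and for Il12rb1, WT 679_4 was at 64.1 CPM against 100.3 to 104 CPM. NFAT5 KO 678_5 also stood apart for Stat3 (1628 against 927 to 1037 CPM) and Irak2 (152 against 46.7 to 61.9 CPM). WT 679_4 also stood apart for Tyk2 (74.5 against 115 to 129 CPM) and Rsad2 (20.8 against 7.18 to 9.5 CPM). NFAT5 KO 679_2 stood apart for Gadd45b (527 against 296 to 337 CPM) and for Nfat5 itself (26.7 against 11.6 to 12.6 CPM). The groups share libraries, so these flags are not independent of each other.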

How the results depend on the processing

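Over 209 refits of the 10 chains under other settings, 158 kept direction and call, 29 kept direction and lost the call, none gained a call and 22 reversed; the 29 were 14 of Ifnar1, 13 of Il12rb2 and 2 of Ifngr1, and the 22 concerned chains that did not pass. No cause of these shifts was tested. The count of 1179 called genes became 26 with the macrophage mean and 580 with the melanoma mean as a covariate, 0 with prefix 678 alone (1449 at an unadjusted p below 0.05; fewer samples), 325 with prefix 679 alone, 1893 with the DESeq2 Wald test, and 696 (without WT 678_2) to 1276 with 1 library left out. The interaction count became 1 with no low-count filter, which also lost the calls of Ifnar1 (adjusted p = 0.0724), Il12rb2 (0.0907), Gbp2 (0.068) and Furin (0.0845). The length offset lost those of Gbp2 (0.0551), Socs1 (0.0515) and Bcl6 (0.0502). The 2 marker lists called became 0 by summed CPM and 0 to 3 with 1 library left out; it was 0 without any 1 of the 5 NFAT5 KO libraries and 2 or 3 without any 1 of the 5 WT libraries.

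Reversed log2 fold changes, all of genes that did not pass, were, for Ifnar2, -0.008 with no low-count filter, -0.003 with the stricter 5 CPM filter, -0.088 with a length offset, -0.084 and -0.013 with the macrophage and melanoma means, and -0.103 within 679. Those for Il10ra were -0.123 and -0.031 with these means, -0.165 within 679 and -0.030 with limma-voom. Within 678, Il18r1 gave 0.052, Il18rap 0.076, Ifng -0.032 and Tyk2 -0.064. Tyk2 also gave -0.002 with the melanoma mean and -0.013 with limma-voom. With the macrophage mean Il27ra gave 0.046 and Stat4 -0.064. Nfat5 gave 0.068 with the length offset and 0.468 within 679. With 1 library left out, values ran from -0.120 to 1.242 for Ifngr2, -0.060 to 0.056 for Ifnar2, -0.025 to 0.146 for Il12rb1, -0.343 to 0.019 for Il18r1, -0.078 to 0.16 for Il10ra, -0.047 to 0.059 for Ifng, -0.368 to 0.025 for Nfat5 and -0.080 to 0.081 for Tyk2. Likewise the share difference ran from -0.22 to 0.62 points for Ifngr1-203 and from -2.12 to 0.94 points for Il10ra-201. No paired analysis was possible because no replicate number is shared between the genotypes. Depth limits Ifngr2 and the ligands near 0.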
